A study of Mus musculus with 16 samples.

Results

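Transcripts of 10 genes for tau, tau kinases and microtubule proteins were examined in the cortex of 5xFAD mice fed vehicle or rapamycin. The genes were taken by symbol from a table of 47593 genes: Mapt, which encodes tau, Map2, Map1a and Map1b, which encode other microtubule-associated proteins, the kinase genes Gsk3a, Gsk3b, Cdk5, Mark1 and Mark2, and Cdk5r1, which encodes the CDK5 activator p35. All 10 were listed, and all 10 were among the 16553 genes that passed the filter on low counts. The 16 libraries fell into 4 groups of 4: females on vehicle (FC), females on rapamycin (FR), males on vehicle (MC) and males on rapamycin (MR). Every mouse, controls included, was a heterozygous 5xFAD animal on a C57BL/6-SJL hybrid background that carried mutant human transgenes of familial Alzheimer's disease driven by the neuron-specific mouse Thy-1 promoter, and no non-transgenic mice were sequenced. The diets began at 2 months of age, the cortex was taken at 5 months, and the vehicle diet held the microencapsulation carrier without the drug.

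Tau binds along the microtubules of axons, and MAP2 does so mainly in dendrites, while MAP1A and MAP1B link microtubules with the rest of the cytoskeleton. Phosphorylation by GSK3, CDK5 and the MARK kinases loosens tau from microtubules, and highly phosphorylated tau is the material of neurofibrillary tangles in Alzheimer's disease. Rapamycin inhibits mTOR, a kinase that controls protein synthesis and autophagy, and the values given here are of RNA, which says nothing of phosphorylation.

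Libraries held 16393501 to 20593089 counted read pairs with a median of 17656718. By their labels 11 libraries belonged to batch 1 and 5 to batch 2 (FC4, FR4, FR5, MC4 and MR4). The library labelled male rapamycin 4 held 9935 read pairs of Xist and 0 of Y-linked genes, which is the pattern of a female. Libraries also differed in how strongly long genes were counted. The exon length slope of a library, found by regressing the departure of all genes from their mean log2 CPM on log2 exon length, ran from 3.95e-04 to 0.10 in vehicle libraries and from -0.127 to 0.064 in rapamycin libraries, and it was lowest in FR2, MR2 and FR1. The same 3 libraries had the highest mitochondrial shares, 6.88% to 6.99% of read pairs, against 2.64% to 5.47% in the other libraries. Replicates within a group differed by 11.5 to 128 times the variance that counting alone gives, so no library was a repeat of another in its group. Libraries of different groups were not compared in this way.

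Levels between genes were compared as CPM (counts scaled to library size, with TMM factors) per kb of exon. Map1a had the highest level, with a median over the 16 libraries of 111 CPM per kb. It was followed by Cdk5r1 at 89.1, Map1b at 78.8, Mapt at 74.4, Gsk3a at 56.0, Map2 at 52.4, Cdk5 at 46.0, Mark1 at 23.3, Gsk3b at 21.8 and Mark2 at 14.6 CPM per kb. The median of all tested genes was 4.43 CPM per kb, and the 10 genes lay at percentile 77.4 (Mark2) to 97.7 (Map1a). Only the steps from Mapt to Gsk3a and from Cdk5 to Mark1 were free of overlap over the 16 libraries. Gsk3b was below Gsk3a per kb, and Mark1 was above Mark2. In CPM alone the order was the reverse, with medians of 214 for Gsk3b and 162 for Gsk3a, and 116 for Mark2 and 101 for Mark1. The order of levels thus rests on the exon lengths given with the counts. Gsk3a may be undercounted, because 28.3% of its exon bases overlap a gene on the opposite strand and pairs that matched both genes were not counted. The shared part was 2.24% for Map1a and 0.754% for Map2.

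**Figure D1:**
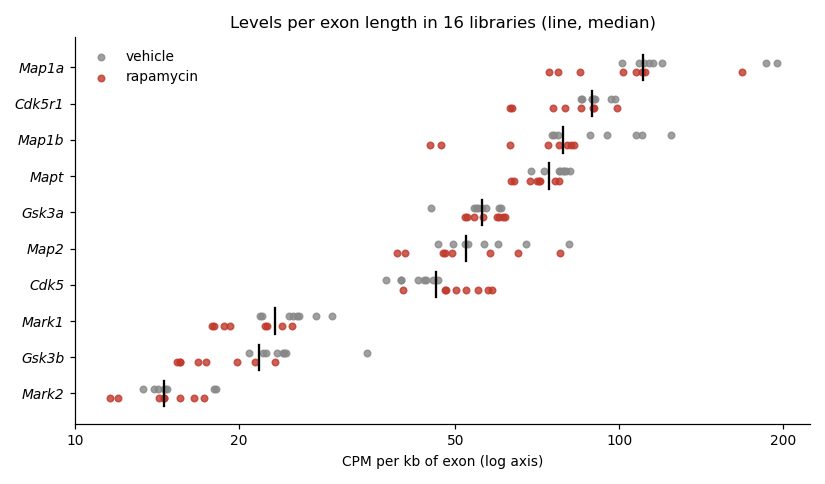
Level of each gene in CPM per kb of exon (log axis) in 8 vehicle and 8 rapamycin libraries, with the median of all 16 as a line. Map1a is highest at 111 CPM per kb and Mark2 lowest at 14.6, and the levels of most neighbours overlap.

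Tau itself showed the least spread of the microtubule genes. Mapt (chromosome 11, 104231390 to 104332090, plus strand, GRCm38, as are all coordinates of genes here) had 547, 519, 600.0 and 597 CPM in FC, and 476, 517, 573 and 531 CPM in FR. In males it had 611, 585, 585 and 593 CPM with vehicle and 537, 539, 584 and 482 CPM with rapamycin. The MC and MR values did not overlap, with the lowest MC library at 584.6 and the highest MR library at 583.9 CPM, whereas FC and FR overlapped. With sex, batch and diet as terms, the log2 fold change of rapamycin over vehicle in both sexes was -0.13 (SE 0.064), and it did not pass the threshold of an adjusted p under 0.05 (adjusted p = 0.168). Its biological coefficient of variation was 0.10, at percentile 3.67 of tested genes.

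In both sexes together, 5 of the 10 genes passed. Gsk3b, Map1a, Map1b and Mark1 fell with rapamycin and Cdk5 rose, and none reached the 1.5-fold used to call a DEG. Among all tested genes 13.3% passed in either direction, 6.86% lower and 6.46% higher, and 2.26% were DEGs. The 10 genes had a median log2 fold change of -0.16 against 0.015 for all genes, and 8 of the 10 were negative against 47.7% of all genes. In bulk tissue, fewer cells of a type and less RNA per cell cannot be told apart.

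**Figure D2:**
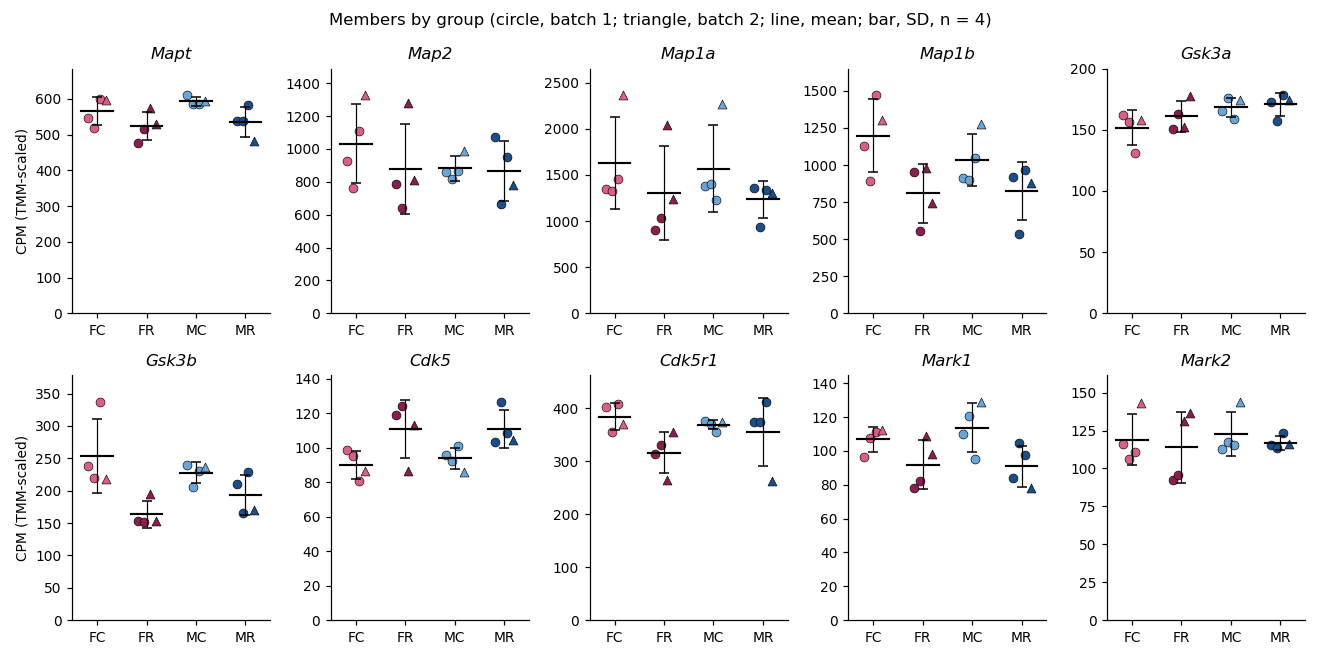
TMM-scaled CPM of each gene in every library by group (4 libraries each; circles, batch 1; triangles, batch 2), with the mean and SD. Gsk3b in FR (152 to 195 CPM) lies below FC (218 to 338 CPM), and Map1a is highest in the batch 2 libraries FC4, MC4 and FR4.

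Gsk3b encodes the kinase glycogen synthase kinase-3 beta (chromosome 16, 38089001 to 38246084, plus strand). It had 238, 220, 338 and 218 CPM in FC and 153, 152, 195 and 154 CPM in FR. In MC it had 240, 205, 231 and 237 CPM, and in MR 210, 166, 229 and 171 CPM. Every FR library was below every FC library, while the male groups overlapped. The log2 fold change in both sexes was -0.42 (SE 0.11; adjusted p = 0.0241). Its close relative Gsk3a, on chromosome 7, had 131 to 176 CPM with vehicle (median 161) and 151 to 179 CPM with rapamycin (median 168), with a log2 fold change of 0.043 (SE 0.063; adjusted p = 0.689).

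Map1b, which is prominent in growing axons (chromosome 13, 99421464 to 99516602, minus strand), had 1125, 893, 1474 and 1303 CPM in FC and 950, 557, 980 and 745 CPM in FR. In males it had 913, 899, 1046 and 1274 CPM with vehicle and 919, 532, 965 and 877 CPM with rapamycin. The lowest values were those of MR2 and FR2, and the diets overlapped in each sex. Its log2 fold change in both sexes was -0.47 (SE 0.14; adjusted p = 0.0376), the largest of the 10.

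Map1a, the form of mature neurons (chromosome 2, 121289600 to 121310832, plus strand), had 1351, 1324, 1455 and 2369 CPM in FC and 904, 1028, 2045 and 1234 CPM in FR. With MC it had 1382, 1401, 1232 and 2264 CPM, and with MR 1358, 939, 1338 and 1304 CPM. The highest 3 libraries, FC4, MC4 and FR4, were all of batch 2. The log2 fold change with rapamycin was -0.38 (SE 0.12; adjusted p = 0.0378). Between the batches Map1a differed by 0.61 on the log2 scale (adjusted p = 0.00138), and Mark2 by 0.31 (adjusted p = 0.0037), both higher in batch 2, where 35.5% of all genes differed.

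The starts of these 3 genes are shown because they are the genes with the most exon sequence among those that fell. The 250 bases before the RefSeq start (GRCm38.p6, 5′ to 3′ on the strand of the gene) lie at chr2:121289352-121289601 for Map1a, chr13:99516603-99516852 for Map1b and chr16:38088751-38089000 for Gsk3b. RefSeq windows were at hand for 7 of the 10 genes. Capitals mark GC boxes (GGGCGG or its complement CCGCCC) and TATA boxes (TATAAA or TTTATA), on either strand.
Map1a: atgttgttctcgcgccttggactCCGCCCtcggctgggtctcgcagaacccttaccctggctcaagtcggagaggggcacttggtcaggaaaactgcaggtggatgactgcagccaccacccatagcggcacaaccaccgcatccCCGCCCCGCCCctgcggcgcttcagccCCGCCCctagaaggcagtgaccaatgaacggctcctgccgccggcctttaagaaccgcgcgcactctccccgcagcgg
Map1b: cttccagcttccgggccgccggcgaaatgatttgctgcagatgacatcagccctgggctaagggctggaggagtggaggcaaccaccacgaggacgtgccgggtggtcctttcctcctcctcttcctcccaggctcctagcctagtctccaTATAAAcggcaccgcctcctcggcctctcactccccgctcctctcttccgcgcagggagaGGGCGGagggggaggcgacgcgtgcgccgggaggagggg
Gsk3b: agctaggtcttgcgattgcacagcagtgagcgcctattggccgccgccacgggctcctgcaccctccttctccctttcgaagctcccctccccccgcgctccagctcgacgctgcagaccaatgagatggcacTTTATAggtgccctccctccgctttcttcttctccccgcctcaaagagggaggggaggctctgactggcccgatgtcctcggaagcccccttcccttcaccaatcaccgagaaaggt
Map1a held 4 GC boxes, Map1b 1 and Gsk3b 0, and 32.7% of 32851 RefSeq promoter windows of the same length held at least 1. A TATA box was found in Map1b and in Gsk3b and in 12.4% of all windows. The CCAAT motif (CCAAT or ATTGG) occurred 3 times in Gsk3b and once in Map1a, and 33.8% of all windows held it. These are letter matches in a window, and binding was not measured.

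Map2 (chromosome 1) had 765 to 1330 CPM with vehicle (median 897) and 642 to 1277 CPM with rapamycin (median 798). The diets overlapped over most of that range, and the log2 fold change of -0.16 (SE 0.13; adjusted p = 0.443) did not pass. FC4 and FR4, both of batch 2, held the highest 2 values.

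Cdk5, the kinase that p35 activates (chromosome 5, 24418241 to 24423530, minus strand), had 98.5, 95.1, 80.8 and 86.3 CPM in FC and 119, 124, 86.8 and 113 CPM in FR. In MC it had 95.8, 92.5, 101 and 86.2 CPM, and in MR 104, 127, 109 and 104 CPM. Each MR library exceeded each MC library, and in females FR4 alone lay within the FC range. The log2 fold change was 0.29 (SE 0.072; adjusted p = 0.0208). Cdk5r1, its activator (chromosome 11), had 354 to 409 CPM with vehicle (median 372) and 262 to 412 CPM with rapamycin (median 343), and its log2 fold change of -0.15 (SE 0.084; adjusted p = 0.230) did not pass. Its FC and FR values did not overlap, with FC2 and FR5 both at 354 CPM after rounding.

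Mark1 and Mark2 phosphorylate tau in its microtubule-binding repeats. Mark1 (chromosome 1, 184896789 to 184999570, minus strand) had 96.1, 108, 111 and 112 CPM in FC and 78.3, 82.0, 109 and 98.1 CPM in FR. In MC it had 110, 121, 95.3 and 129 CPM and in MR 83.9, 105, 97.4 and 77.9 CPM. The diets overlapped in both sexes, and the log2 fold change was -0.29 (SE 0.085; adjusted p = 0.0353). Mark2 (chromosome 19) had 106 to 144 CPM with vehicle and 92.2 to 137 CPM with rapamycin, with a log2 fold change of -0.10 (SE 0.067; adjusted p = 0.326).

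Taken by sex, 0 of the 10 genes passed in females, where 0.0121% of all genes did, and 0 passed in males, where 0% did. In females 4 had an unadjusted p under 0.05 (23.1% of all genes), and in males 2 did (12% of all genes). Females had log2 fold changes of -0.62 for Gsk3b (adjusted p = 0.0694), -0.63 for Map1b, -0.48 for Map1a, 0.34 for Cdk5, -0.26 for Mark1 and -0.12 for Mapt. Males had -0.24, -0.32, -0.29, 0.24, -0.31 and -0.15 for the same genes, so that each had the same sign in both sexes. Without the library labelled male rapamycin 4, which has the pattern of a female, the male values were -0.14 for Map1a, -0.19 for Mark1 and -0.081 for Mapt, and without MR2 Map1b was -0.17. Without FR1 Mapt was -0.066 in females. By DESeq2 4 of the 10 passed in females, where 8.98% of all genes did, and without FR4 4 did by edgeR, where 12.6% of all genes did. For the interaction of sex and diet 0 of the 10 genes and 0% of all genes passed, and 0 of the 10 against 2.17% of all genes had an unadjusted p under 0.05 (adjusted p = 0.999 for each of the 10). Between FC and MC 0 of the 10 passed (smallest adjusted p = 0.999), where 0.0121% of all genes did. The CPM of the diets did not overlap for 2 of the 10 genes in females (Gsk3b and Cdk5r1) and for 2 in males (Mapt and Cdk5), against 5.78% and 6.13% of all genes.

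Fold changes went along with exon length. Genes with exons under 2 kb had a median log2 fold change of 0.22 with rapamycin, those of 2 to 4 kb 0.073, those of 4 to 8 kb -0.053 and those over 8 kb -0.19. Cdk5 (2.17 kb) and Gsk3a (2.9 kb) were the shortest of the 10 and the only positive ones. Map2 (16.4 kb), Map1a (12.2 kb), Map1b (11.9 kb) and Gsk3b (9.83 kb) were over 8 kb. Map2, the longest, had a log2 fold change of -0.16, near the class median of -0.19. In this class 23.8% of genes passed lower and 0.638% higher.

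**Figure D3:**
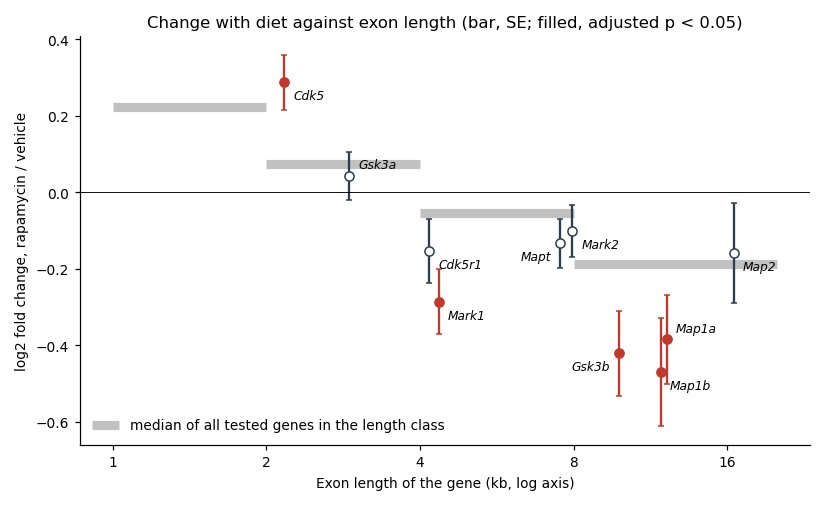
Log2 fold change of rapamycin over vehicle in both sexes (dot, with SE; filled where adjusted p is under 0.05) against exon length in kb (log axis), with the median of all tested genes in each length class as a grey bar. Cdk5 is the shortest gene and rose, and the 3 genes that fell most are over 8 kb.

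Across libraries the genes moved with the exon length slope of the library. With batch means removed, Pearson's r over the 16 libraries was 0.94 for Gsk3b, 0.90 for Map1a, 0.84 for Map1b, 0.80 for Mapt, 0.76 for Map2, 0.66 for Mark1 and Mark2, 0.50 for Cdk5r1, -0.18 for Gsk3a and -0.94 for Cdk5. The slope is taken over all genes of the same libraries, so these are descriptions. With the slope as a covariate 0 of the 10 genes passed and 0 of all genes did. The log2 fold changes were then 0.014 for Gsk3b, 0.017 for Map1a, 0.0040 for Map1b, 0.040 for Cdk5 and -0.20 for Mark1. With offsets that removed the length trend inside each library, the values were -0.25 for Gsk3b, -0.19 for Map1a, -0.27 for Map1b, 0.20 for Cdk5, -0.25 for Mark1 and -2.37e-04 for Mapt, and 0 of the 10 passed, while 949 of all genes did. With the mitochondrial share as a covariate 0 of the 10 and 0 of all genes passed. Without FR1, FR2 and MR2, a choice made after seeing the data, 0 of the 10 and 1 of all genes passed. Diet and the slope go together in these libraries, and they cannot be told apart for the 10 genes.

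**Figure D4:**
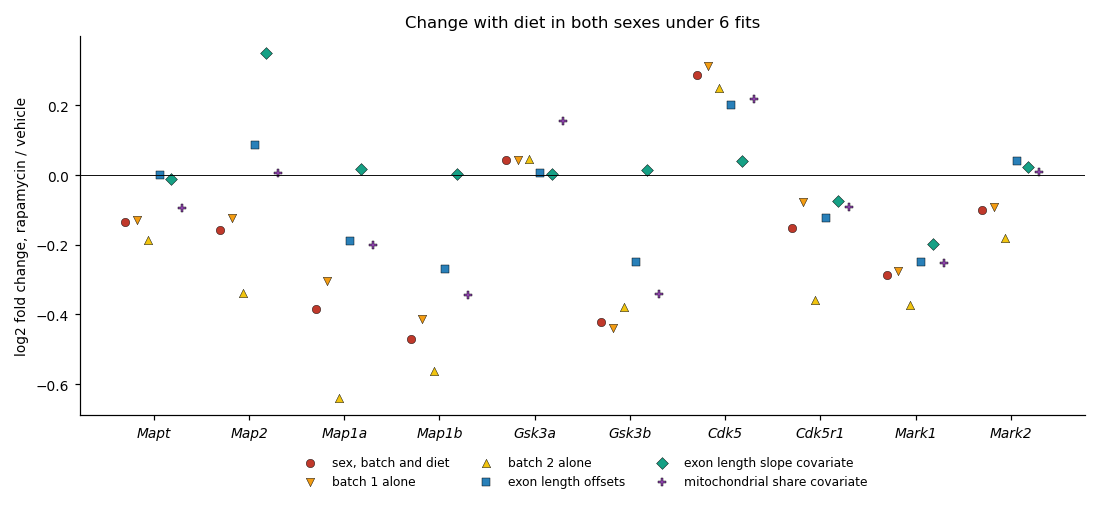
Log2 fold change of rapamycin over vehicle for each gene under 6 fits: sex, batch and diet; each batch alone; exon length offsets; and a covariate of exon length slope or of mitochondrial share. Gsk3b moves from -0.42 to 0.014 and Cdk5 from 0.29 to 0.040 with the slope as a covariate, while both batches taken alone keep the sign of every gene.

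Within batch 1 alone the log2 fold changes were -0.44 for Gsk3b, -0.31 for Map1a, -0.41 for Map1b, -0.28 for Mark1 and 0.31 for Cdk5. Of the 10 Cdk5 alone passed, where 1240 of 16644 genes did. Within batch 2 alone, with 2 vehicle and 3 rapamycin libraries, the same values were -0.38, -0.64, -0.56, -0.37 and 0.25. There 0 of the 10 passed, and only 3 of 17665 genes did. Without a batch term 0 of the 10 passed, where 142 of 16553 genes did. Leaving out FR1 or FR2 left 0 of the 10 passing, where 719 and 868 of all genes passed. Leaving out MC4 left Cdk5 alone, with 1234 of all genes. Leaving out the library labelled male rapamycin 4 left Gsk3b and Cdk5, with 1591 of all genes. Of the 16 fits that each left out 1 library, Cdk5 lost its call in 2, Gsk3b in 4, Map1b in 10, Mark1 in 11 and Map1a in 12.

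Ratios of paired genes within a library do not depend on the scaling of that library, though they still depend on exon length. Gsk3b (9.83 kb) is longer than Gsk3a (2.9 kb), and Cdk5r1 (4.16 kb) is longer than Cdk5 (2.17 kb). Map1b (11.9 kb) and Map2 (16.4 kb) are longer than Mapt (7.53 kb), whereas Mark1 (4.36 kb) is shorter than Mark2 (7.94 kb). The ratios were not fitted with the exon length slope, so diet and slope cannot be told apart for them either. The ratio of Gsk3b to Gsk3a, as read pairs per kb, was 0.345 to 0.762 with vehicle (median 0.421, n = 8) and 0.255 to 0.378 with rapamycin (median 0.306, n = 8). It was lower with rapamycin by -0.47 on the log2 scale (exact permutation test of the diet labels within batches, two-sided, p = 0.00368, adjusted over 5 ratios p = 0.0092). The ratio of Cdk5r1 to Cdk5 was 1.84 to 2.63 with vehicle and 1.31 to 1.98 with rapamycin, a difference of -0.44 (exact p = 0.00108, adjusted p = 0.00541). Mark1 to Mark2 differed by -0.19 (exact p = 0.0219, adjusted p = 0.0364) and Map1b to Mapt by -0.36 (exact p = 0.0374, adjusted p = 0.0468). Map2 to Mapt had medians of 0.719 and 0.743 and a difference of -0.049 (exact p = 0.687, adjusted p = 0.687). The exact test had 4620 assignments. In batch 1 alone, Gsk3b to Gsk3a differed by -0.49 (adjusted p = 0.0379, exact) and Cdk5r1 to Cdk5 by -0.38 (adjusted p = 0.0379, exact), while Mark1 to Mark2 (adjusted p = 0.0974) and Map1b to Mapt (adjusted p = 0.211) did not pass.

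**Figure D5:**
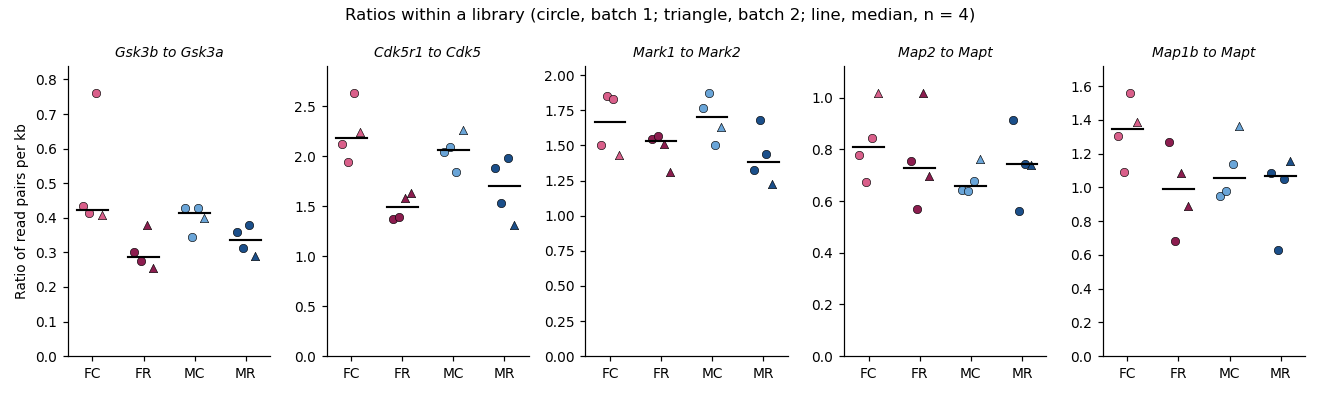
Ratio of read pairs per kb between paired genes in every library by group (circles, batch 1; triangles, batch 2; line, median of 4). Cdk5r1 to Cdk5 is 1.84 to 2.63 with vehicle and 1.31 to 1.98 with rapamycin, and Map2 to Mapt overlaps throughout.

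Other genes around tau were read from 7 lists of 144 genes. Of 31 other tau kinases and activators, 0 rose and 1 fell (median log2 fold change -0.11): Prkaa2, a catalytic subunit of AMPK, from 55.7 ± 6.67 to 42.1 ± 5.61 CPM (SD, n = 8; log2 fold change -0.41, adjusted p = 0.0156). Of 17 tau phosphatase genes 0 passed (median 0.032), among them the calcineurin genes Ppp3ca (log2 fold change -0.034) and Ppp3r1 (0.13). Of 16 tubulins 0 passed (median 0.11), with 0.13 for Tuba1a and 0.088 for Tubb4a. Among all genes the median was 0.015, and 6.86% passed lower and 6.46% higher.

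Of 35 other microtubule proteins 4 rose and 9 fell (median -0.15). For this list and those below, the share of all genes that passed was 6.86% lower and 6.46% higher. The share lower was 8.19% among genes with exons of 4 to 8 kb and 23.8% among those over 8 kb. Dst, a linker of cytoskeletal filaments, fell by 0.50 on the log2 scale (adjusted p = 0.0303), the doublecortin-like kinase Dclk1 by 0.35 (adjusted p = 0.0283) and the minus-end binding Camsap2 by 0.35 (adjusted p = 0.0208). The genes that rose included the stathmins Stmn3 and Stmn4, which bind free tubulin and are short (1.14 and 1.92 kb), each at 0.32, and the severing subunit Katna1 at 0.33. Of 15 tested tubulin-modifying enzymes 3 fell: Vash1 (-0.52), Agtpbp1 (-0.40) and Ttll7 (-0.39). Of 24 motors 6 fell and 0 rose (median -0.17), led by the dynein heavy chain Dync1h1 (-0.52, adjusted p = 0.0119; 15.7 kb), Kif3b (-0.44) and Kif21a (-0.40). Of 5 neurofilament genes 0 passed, with 0.029 for Nefl and -0.024 for Ina. With 1 library left out, the genes that passed ranged from 2 (without FR1 or FR2) to 16 (without FR4) for the other microtubule proteins, from 2 to 6 (the same libraries) for the tubulin-modifying enzymes and from 3 (without FR1) to 11 (without FR4) for the motors. Without a batch term they were 0, 2 and 1, and in batch 1 alone 4, 3 and 4. Stmn3 lost its call in 13 and Katna1 in 11 of the 16 fits that left out 1 library. With the exon length slope as a covariate 0 genes of any of the 7 lists passed, and with the length offsets 4 motors, 2 tubulin-modifying enzymes and 1 other microtubule protein did.

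Neuronal markers were high in every library. Of 8 pan-neuronal markers 0 passed, and their summed level was 5349 to 7175 CPM with vehicle and 4879 to 7913 CPM with rapamycin. Of 8 glutamatergic markers 1 fell, and of 9 GABAergic markers 0 passed. Of 8 astrocyte markers 2 rose (Aldoc and S100b), of 8 endothelial markers 1 rose (Ly6c1), and of 9 oligodendrocyte, 8 microglial, 8 striatal and 5 blood markers 0 passed. Of 9 choroid plexus markers 4 fell, with a summed level of 15.1 to 1973 CPM with vehicle, highest in MC4, and 25.0 to 192 CPM with rapamycin. Beside these counts, 6.86% of all genes passed lower and 6.46% higher. The part of the marker genes in the values of the 10 genes was not tested.

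The genes most like Mapt over the 16 libraries (log2 CPM with batch means removed, among 10137 genes of at least 10 CPM) included Ccnt1 (r = 0.92), Rab11fip4 (0.91), Jade2 (0.91) and Gramd1b (0.90). Those most like Map1b were Trim2 (r = 0.98), Fam126b (0.96), C77370 (0.95), 9930021J03Rik (0.94) and Ptprg (0.93). The genes named here had exons of 7.45 to 19.8 kb. Among the 10 tau and microtubule genes themselves, r was highest between Map1b and Gsk3b (0.85) and lowest between Gsk3b and Cdk5 (-0.90), over the same 16 libraries and with the shared length slope described above.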

How the data were processed

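The authors deposited counts of read pairs per gene for 16 libraries, not normalized or filtered, and the same counts in 1 table per group, with 0 differing cells. They made them from poly(A) RNA read as 150 bp pairs with Trimmomatic 0.39 (first 10 bases removed), FastQC 0.11.9, HISAT2 2.2.1 on GRCm38 and featureCounts 2.0.3, without strand, on exons of Ensembl genes; Trim Galore is also named in the submitters' processing notes. Pairs that matched several genes were not counted. The 4 libraries that the labels give per group were used as replicates. The paper gives 4 mice per group beside these data. Its main text gives pooling of mice for sequencing and a number of samples per condition that differs from the libraries used here. The number of mice, and whether a library is 1 mouse, were thus not settled here.

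TMM scaling, filterByExpr (minimum count of 10) and quasi-likelihood tests were run in R 4.3.3 with edgeR 4.0.16, with sex, batch and diet as terms, or the 4 groups and batch for each sex, the interaction and the vehicle groups. P-values were adjusted by Benjamini and Hochberg over 16553 genes, and a pass is an adjusted p under 0.05. CPM use the TMM factors, and log2 CPM a prior count of 2. Depth was 16393501 to 20593089 read pairs. The tests were tried on simulated data. Alternatives were DESeq2 1.42.0, RLE size factors, no filter, no batch term, each batch alone, the replicate number as a block, exon length or mitochondrial share terms, and each library left out. Ratios were tested by exact permutation. Figures were drawn with Python 3.11.15 and matplotlib 3.10.9.

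The genes and lists were chosen with earlier results of these data known. Named genes are the 10 genes, up to 3 per direction that passed in each list by size of change (or, where none passed, the 2 of highest mean CPM), and the 5 most correlated with Mapt and with Map1b; marker genes named beside counts were chosen after their values were seen. Some items that these rules select are not reported here.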

Additional observations from a re-analysis of the deposited data

Results flagged for a closer look

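Within a group of 4 libraries, single libraries stood far from the other 3 in 7 of the 40 groups examined (10 genes in 4 groups). The limit used flags about 1 in 20 among independent groups of like replicates. The 10 genes share the same 16 libraries and each group mixes the batches, so that rate does not apply to the 7. Map1a was high in FC4 (2368.7 CPM, against 1323.7 to 1454.8 in the other FC libraries) and in MC4 (2263.6 CPM, against 1231.8 to 1400.7), both the only batch 2 library of their group. It was low in MR2 (939.0 CPM, against 1303.6 to 1358.3), 1 of the 3 libraries of lowest exon length slope. Mark2 was high in MC4 (144.0 CPM, against 113.0 to 117.3). In FC3 Gsk3b was high (337.6 CPM, against 218.0 to 237.6) and Gsk3a low (130.7 CPM, against 156.7 to 161.9). Gsk3b was also high in FR4 (195.3 CPM, against 151.6 to 153.6).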

How the results depend on the processing

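With 5 of the 10 genes and 2205 of all genes passing in both sexes, DESeq2, RLE size factors and no low count filter left the same 5. Fewer passed without a batch term (0 of the 10 and 142 of all genes), in batch 1 alone (1 and 1240), in batch 2 alone (0 and 3), with exon length offsets (0 and 949), with the slope (0 and 0) or mitochondrial share (0 and 0) as a covariate, and without FR1, FR2 and MR2 (0 and 1); the 1.5-fold threshold left 0. Each library left out in turn gave 0 (without FR1 or FR2) to 5 of the 10, and 719 (without FR1) to 3352 (without FR4) of all genes. In females, where 0 of the 10 passed, DESeq2 gave 4 (8.98% of all genes), no filter 3 (5.55%), batch 1 alone 1 (7.75%) and a library left out 0 to 4 (12.6% without FR4), against 0.0121% of all genes in the fit reported. Males, the interaction and FC against MC kept 0 of the 10 in every fit run for them. The cause of these shifts was not tested.

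The replicate numbers of the labels were not taken to pair libraries across groups: 7 of 21 same-numbered pairs of libraries correlated above 0.1 after group and batch means were removed. With the replicate block in place of batch 3 of the 10 (Map1b, Gsk3b and Cdk5) and 1298 of all genes passed, and with the block and the slope 0 and 0 did.

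Log2 fold changes in both sexes, unless a sex is named, turned sign in these fits, none with an adjusted p under 0.05. Without a batch term, the values were Nefl -0.020. In batch 1 alone, the values were Ppp3ca 0.050. In batch 2 alone, the values were Tubb4a -0.056, Ina 0.19. With exon length offsets, the values were Map2 0.085, Mark2 0.040, Ppp3ca 0.16 and Mapt 0.040 in females. With the exon length slope as a covariate, the values were Map2 0.35, Map1a 0.017, Map1b 0.0040, Gsk3b 0.014, Mark2 0.023, Ppp3r1 -0.027, Tuba1a -0.045, Tubb4a -0.26, Stmn3 -0.14, Dst 0.023, Nefl -0.013, Ina 0.020 and Mapt 0.053, Map1a 0.026 in females and Map1a 0.012, Map1b 0.018, Gsk3b 0.071 in males. With the replicate block and the slope, the values were Map2 0.33, Map1a 0.12, Mark2 0.053, Ppp3r1 -0.12, Tuba1a -0.18, Tubb4a -0.30, Stmn3 -0.18, Dst 0.12, Ina 0.044 and Mapt 0.056, Map1a 0.17, Cdk5 -0.021 in females and Map1a 0.10, Gsk3b 5.20e-04 in males. With the mitochondrial share as a covariate, the values were Map2 0.0070, Mark2 0.0092, Ppp3r1 -0.056, Tubb4a -0.14, Nefl -0.065, Ina 0.013. Without FR1, FR2 and MR2, chosen after seeing the data, the values were Map2 0.014, Tubb4a -0.14, Nefl -0.010, Ina 0.026. With 1 library left out, Ppp3ca ran from -0.10 to 0.031, Nefl from -0.023 to 0.094 and Ina from -0.062 to 0.0075.

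Among the ratios, Gsk3b to Gsk3a and Cdk5r1 to Cdk5 kept their call with each library left out and in batch 1 alone. No ratio was tested with the exon length slope, length offsets or mitochondrial share, or without FR1, FR2 and MR2. Mark1 to Mark2 lost it in 8 of 16 such fits (-0.21 to -0.16) and in batch 1 alone (-0.19), and Map1b to Mapt in 13 of 16 (-0.44 to -0.27) and in batch 1 alone (-0.34). Map2 to Mapt ran from -0.12 to 0.0065.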
